A study of Mus musculus with 2 samples.

Results

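The bile acid transporters of the hepatocyte were measured in mouse liver upon fasting and upon feeding. The set held 10 genes, chosen by name and by the membrane and direction of transport, and every probe whose RefSeq transcript belonged to one of them was used. These were 11 probes of the 27218 that could be named, and 10 genes of 20652. Uptake from portal blood was represented by Slc10a1, Slco1a1, Slco1a4 and Slco1b2, export into bile across the canalicular membrane by Abcb11 and Abcc2, and export back into blood across the basolateral membrane by Abcc3, Abcc4, Slc51a and Slc51b. Total RNA came from the livers of male mice, pooled from 3 per group, and the study's methods give adult C57BL/6J mice; the labels list no transgene or drug. The fasting group was starved overnight, for about 14 to 16 h, and the feeding group received nutrition after its fast, although a second label calls its mice ad libitum-fed. Each pool was labelled with Cy3, a fluorescent dye, and hybridised to 1 Agilent Whole Mouse Genome array, so no test between the groups was possible and no value carries an error between mice.

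Bile acids return from the intestine in portal blood, are taken up by hepatocytes, and are pumped into bile against a steep gradient. NTCP, encoded by Slc10a1, takes up conjugated bile acids together with sodium, while the OATP family, encoded by the Slco genes, takes up unconjugated bile acids and many other organic anions without sodium. Export across the basolateral membrane is a minor route in the normal liver and is known as an overflow path in cholestasis. The nuclear receptor FXR, encoded by Nr1h4, senses bile acids and induces Abcb11, Slc51a and Slc51b among other genes. It acts through SHP, encoded by Nr0b2, to restrain uptake and synthesis.

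Upon feeding, 1 of the 9 genes that could be measured was at least 2-fold higher, beside 3.28% of all genes measured, and 0 were at least 2-fold lower, beside 4.63%. Slc51b, the β subunit of the basolateral exporter OST, was 3.68-fold higher upon feeding, a log2 change of 1.88 that was 1.16 with normexp, another background correction. Among the others, the OATP genes Slco1a4 and Slco1a1 and the basolateral exporter gene Abcc3 were 1.75-fold, 1.54-fold and 1.67-fold lower. The main sodium-dependent uptake gene Slc10a1 and both canalicular exporter genes, Abcb11 and Abcc2, were within 1.12-fold of their fasting level.

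FXR, together with RXR, is known to bind an inverted repeat of the half-site AGGTCA with 1 base in between (IR-1, AGGTCANTGACCT), HNF4A and PPARA bind a direct repeat with the same spacing (DR-1, AGGTCANAGGTCA), and LXR and CAR bind a direct repeat with a spacing of 4 bases (DR-4, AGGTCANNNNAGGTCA). The 250 bases before the annotated start of each gene were searched for these letters on both strands, with N as any base and up to 2 mismatches. The motifs share their half-site, so that 1 stretch can match several of them. RefSeq held 11 such windows for 9 of the 10 genes, 2 each for Slc10a1 and Abcc4, and none was given for Abcc3. Matches were present before 4 genes, which are shown for this reason, 5′ to 3′ on the strand of the gene with the match in capitals, from the assembly GRCm38.p6. They lie at chr2:69342617-69342866 on the minus strand for Abcb11, at chr6:141629268-141629517 on the plus strand for Slco1b2, at chr6:141946963-141947212 on the minus strand for Slco1a1 and at chr9:65422774-65423023 on the minus strand for Slc51b.
Abcb11: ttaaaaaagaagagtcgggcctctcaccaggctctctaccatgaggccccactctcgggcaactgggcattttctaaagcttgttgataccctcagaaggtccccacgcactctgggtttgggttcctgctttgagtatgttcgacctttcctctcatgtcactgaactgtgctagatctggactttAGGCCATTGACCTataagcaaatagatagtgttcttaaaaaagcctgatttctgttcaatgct
Slco1b2: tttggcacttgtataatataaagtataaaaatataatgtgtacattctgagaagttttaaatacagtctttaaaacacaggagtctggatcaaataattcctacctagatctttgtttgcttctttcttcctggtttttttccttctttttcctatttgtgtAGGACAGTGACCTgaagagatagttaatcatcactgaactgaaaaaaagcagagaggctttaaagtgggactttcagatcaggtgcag
Slco1a1: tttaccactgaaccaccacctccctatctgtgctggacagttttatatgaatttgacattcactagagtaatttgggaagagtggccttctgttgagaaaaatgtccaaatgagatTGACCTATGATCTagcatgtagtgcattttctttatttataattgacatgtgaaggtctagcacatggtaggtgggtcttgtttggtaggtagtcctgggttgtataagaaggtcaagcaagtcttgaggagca
Slc51b: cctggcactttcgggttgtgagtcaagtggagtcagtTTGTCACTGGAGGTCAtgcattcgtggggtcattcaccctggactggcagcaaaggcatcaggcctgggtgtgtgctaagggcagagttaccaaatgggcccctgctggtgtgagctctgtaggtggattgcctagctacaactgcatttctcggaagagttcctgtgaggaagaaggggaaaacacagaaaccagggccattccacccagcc
Counted from the start of the gene, the Abcb11 window held an IR-1 match with 1 mismatch at -63 to -51, and the Slco1b2 window an IR-1 match with 1 mismatch at -88 to -76. Among 32851 windows of all genes, 0.959% held an IR-1 match within 2 mismatches and 0.0791% within 1. Slco1a1 had a DR-1 match with 1 mismatch at -134 to -122 on the opposite strand, a motif that 0.484% of all windows held within 1 mismatch and 3.24% within 2. Slc51b had a DR-4 match with 2 mismatches at -213 to -198, where 2.57% of all windows held one. Its nearest IR-1 letters had 3 mismatches, as did those of Slc51a, Slco1a1 and Slc10a1, and 9.63% of all windows held IR-1 letters within 3. The share of all windows that match any of the motifs was not computed, so the count of 4 genes has no background beside it. The matches describe the letters in these windows and do not show binding.

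The arrays held 44397 spots each, 1377 of them controls, and saturation was not recorded for any spot. The processed signal, a fluorescence intensity after background subtraction, was well above background for 63.1% of the transcript spots upon fasting and 72.3% upon feeding, at median local backgrounds of 30.2 and 22.5. The marker Alb, for serum albumin of hepatocytes, had a processed signal of 159091 upon fasting and 141790 upon feeding, and its log2 change was -0.07. The error given with each signal below is that of the Feature Extraction software for 1 spot, close to a constant share of the signal for bright spots, which covers the measurement on the array and not the spread between mice. A change is the difference of quantile normalized log2 signals, feeding minus fasting, and differs slightly from the ratio of the processed signals. Replicate spots of the same probe gave a second measure of noise, an SD of the change of 0.26 among the dimmest probes, 0.09 among those of middle signal and 0.08 among the brightest, with the probes cut into 3 equal ranks of signal.

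**Figure D1:**
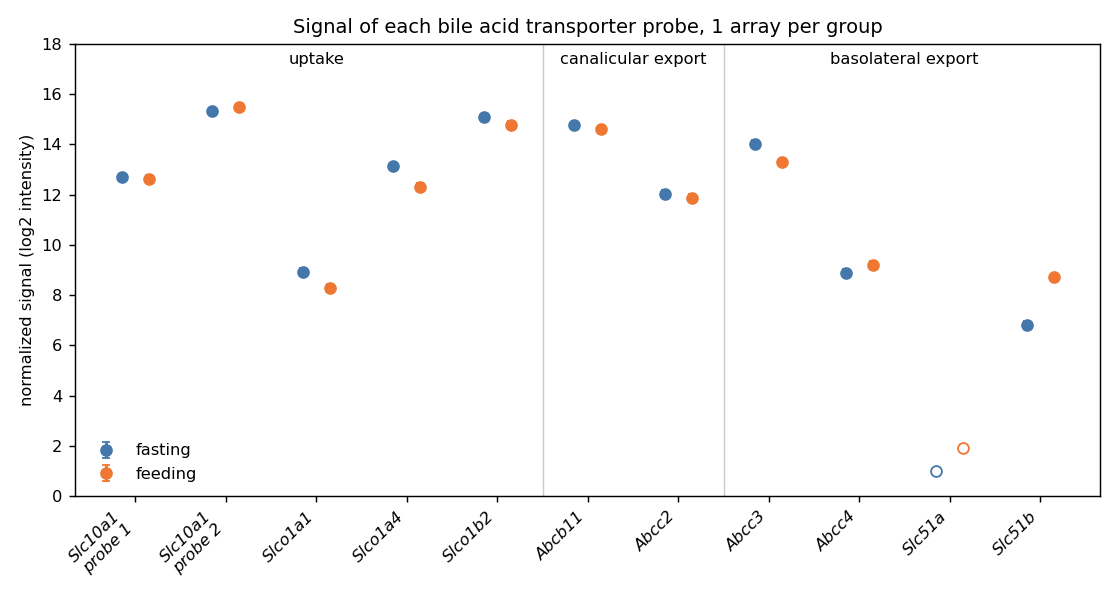
Normalized signal (log2 intensity, vertical axis) of each of the 11 probes upon fasting (blue) and feeding (orange), 1 array each, grouped by role; bars, mostly hidden by the points, are the software's signal error, and open points were not well above background. Slc51b is higher upon feeding, Slco1a1, Slco1a4 and Abcc3 are lower, and the probe of Slc51a was not well above background. Signals of different probes do not compare the amounts of different transcripts.

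Of the uptake genes, Slc10a1 had 2 probes. The brighter probe gave 41578 ± 4158 upon fasting and 45025 ± 4503 upon feeding, a change of 0.16. The dimmer probe gave 6677 ± 668 and 6328 ± 633, a change of -0.05. The probes pointed in opposite directions, and both changes were smaller than the error that the software assigns to them. No difference in Slc10a1 was therefore detectable with quantile normalization. With the arrays scaled by their medians the brighter probe had a change of 0.35, above its error of 0.20, where the median of all genes was 0.09.

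The 3 OATP genes of the set were lower upon feeding. Slco1a4, whose product OATP1A4 carries bile acids and cardiac glycosides, had a signal of 9029 ± 903 upon fasting and 5031 ± 503 upon feeding. The change was -0.81, which is 3.97 times the software's error on it, and 6.62% of the 16348 genes measured were lower by more. Slco1a1, whose product OATP1A1 carries sulfated steroids and bile acids, had a signal of 513.5 ± 51.5 upon fasting and 299.1 ± 30.0 upon feeding. Its change was -0.62, or 3.04 times the software's error, and 9.76% of genes were lower by more. The signals of both genes upon feeding lay outside the software's error of the fasting signal.

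Slco1b2, which encodes OATP1B2, the mouse counterpart of the human hepatic uptake proteins OATP1B1 and OATP1B3, had a signal of 35127 ± 3513 upon fasting and 27665 ± 2767 upon feeding. Its change was -0.30, which is 1.48 times the software's error, and 21.9% of genes were lower by more. The median change of the uptake genes was -0.46, with Slc10a1 represented by its brighter probe.

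Slco1b2, Slco1a4 and Slco1a1 lie in 1 cluster on chromosome 6 in the RefSeq annotation, in the order Slco1c1, Slco1b2, Gm5724, Slco1a4, Slco1a1, Gm6614, Slco1a6 and Slco1a5. No probe was named for Gm5724. The Slco1c1, Gm6614, Slco1a6 and Slco1a5 probes had signals of at most 7.82, which the software did not call well above background, and no change could be given for them. Slco1a genes are close in sequence, and the files hold no probe sequences with which sharing of signal between them could be checked. Next to Slco1c1, the neighbour Pde3a, which encodes a phosphodiesterase and no transporter, had a change of -0.37 at signals of 24.6 and 17.0. At the other end, next to Slco1a5, Iapp was not well above background.

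The canalicular exporter genes differed little between the arrays. Abcb11 encodes BSEP, the pump that sets the rate of bile acid secretion. Its signal was 28204 ± 2820 upon fasting and 24627 ± 2463 upon feeding, a change of -0.16. Abcc2 encodes MRP2, which exports conjugated bilirubin, glutathione and sulfated or glucuronidated bile acids. Its signal was 4248 ± 425 upon fasting and 3736 ± 374 upon feeding, a change of -0.16 as well. Both changes were smaller than the software's error, and with the arrays scaled by their medians their sign turned, to 0.04 for Abcb11 and 0.05 for Abcc2. No direction is given for them.

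The basolateral exporter genes did not move together. Slc51b, whose product OSTβ must pair with OSTα to reach the membrane and carry bile acids, had a signal of 122.0 ± 12.7 upon fasting and 394.6 ± 39.5 upon feeding. Both signals lay above the local background of the spots, which was 24.3 and 22.3. The change was 1.88, or 9.01 times the software's error, and 92 of the 16348 genes measured, 0.563%, were higher by more. It was also far above the SD of 0.09 between replicate spots of similar signal, and with normexp it was 1.16.

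Slc51a, which encodes the partner subunit OSTα, had signals of 3.13 upon fasting and 3.60 upon feeding at local backgrounds of 36.0 and 24.4. Neither array had it well above background. The 2 subunits of OST therefore could not be compared, and a low signal of its only probe gives no measure of the amount of Slc51a transcript.

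Abcc3 encodes MRP3, which moves glucuronides and some bile acids into blood. Its signal was 16922 ± 1692 upon fasting and 10047 ± 1005 upon feeding, at local backgrounds of 22.1 and 22.0. The change was -0.74, which is 3.63 times the software's error, and 7.55% of genes were lower by more. Abcc4 encodes MRP4, which exports bile acids together with glutathione as well as cyclic nucleotides. Its signal was 502.7 ± 50.4 upon fasting and 563.8 ± 56.4 upon feeding, a change of 0.31 or 1.52 times the software's error, and 21.9% of genes were higher by more. Within the basolateral group Slc51b was thus the gene with the higher signal upon feeding by a wide margin over the error, Abcc3 had the lower signal, and the Abcc4 signals overlapped within their errors.

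**Figure D2:**
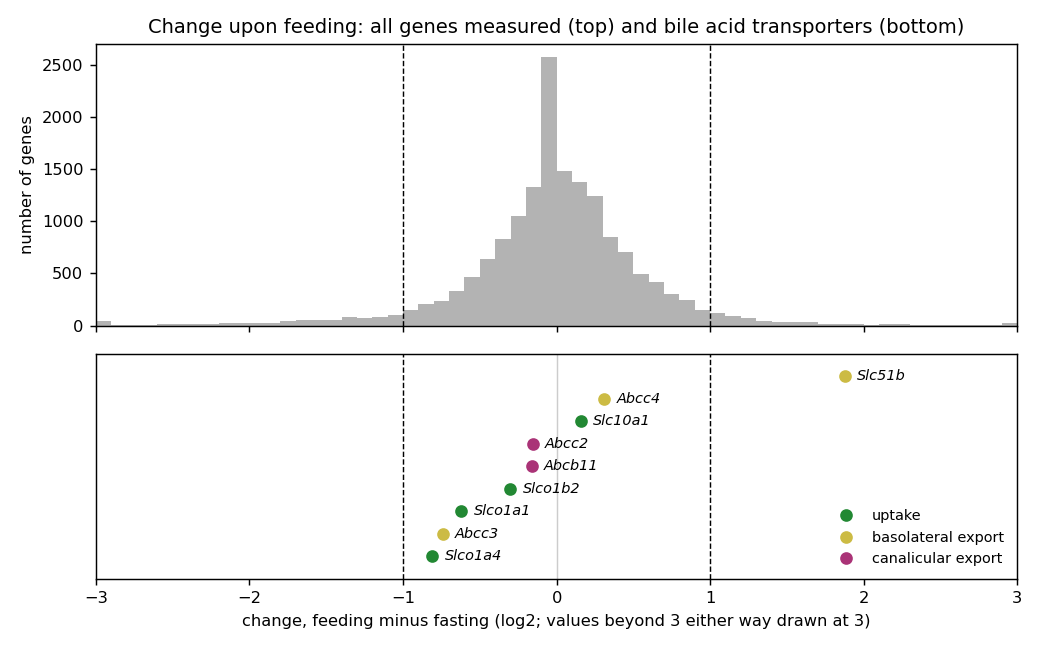
Top: number of genes (vertical axis) by change upon feeding (log2, horizontal axis) for the 16348 genes measured, with dashed lines at 2-fold; the tall column next to 0 includes 1149 genes that were well above background on 1 array only and whose lower bound gave no fold, set at 0. Bottom: the 9 measured bile acid transporter genes on the same axis, coloured by role, with Slc51b at 1.88 and the others between -0.81 and 0.31.

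Of the 9 genes measured, 3 had a positive change and 6 a negative one, beside 7802 and 7384 of the 16348 genes measured. The count includes Slc10a1, Abcb11 and Abcc2, whose changes were smaller than the software's error. At 1.5-fold, 1 of the 9 was higher, beside 10.5% of all genes, and 3 were lower, beside 10.6%. Among the 5449 genes measured with the highest signals, in which 6 of the 9 lie, 8.66% were at least 1.5-fold lower. The median change of the 9 genes was -0.16, against 0 for all genes measured and 0.02 for those 5449. The median of the set was close to 0, and its sign depended on the scaling: it was 0.04 with the arrays scaled by their medians, where the median of all genes was 0.09.

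Under 9 other ways of processing the arrays, Slc51b lay between 1.16 and 1.93, and it was past 2-fold under each of them. The lowest value came from normexp, which draws dim signals together. Slco1a4 lay between -0.84 and -0.61, Abcc3 between -0.81 and -0.52, and Slco1a1 between -0.67 and -0.43. These 3 genes were lower upon feeding under each of the 9. For them and Slc51b, the mean of probes, the other filters and the missing lower bound could only repeat the main value. Each of these genes had 1 probe, well above background on both arrays. Slco1b2 ranged from -0.39 to -0.11, Slc10a1 from 0.05 to 0.35 and Abcc4 from 0.19 to 0.40.

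**Figure D3:**
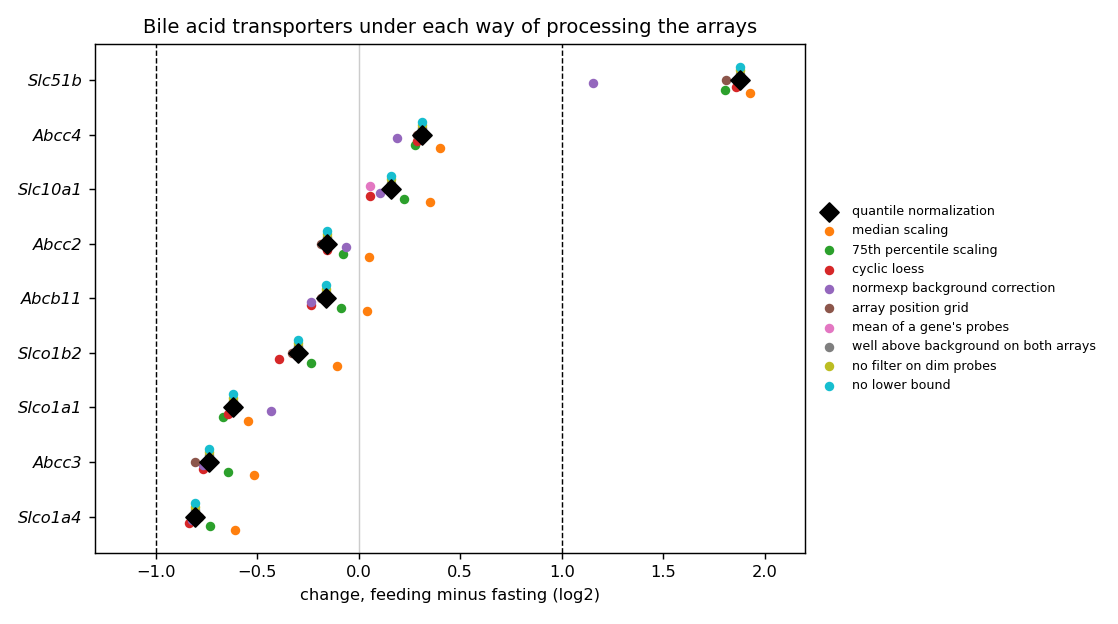
Change upon feeding (log2, horizontal axis) of the 9 measured bile acid transporter genes (rows) under quantile normalization (black diamonds) and 9 other ways of processing (coloured circles, shifted vertically for clarity), with dashed lines at 2-fold. Slc51b stays above 2-fold, Slco1a4, Abcc3 and Slco1a1 stay below 0, and Abcb11 and Abcc2 fall on both sides of 0. The mean of probes, the other filters and the missing lower bound repeat the main value for every gene but Slc10a1.

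In RNA of whole liver, fewer cells of a type and less RNA per cell cannot be told apart. Bile duct cells and ileal enterocytes also use OST, and their markers were therefore examined beside Slc51b. Of 6 cholangiocyte markers all were measured, and their summed normalized signal was 2785 upon fasting and 3402 upon feeding. Sox9, a transcription factor of bile duct cells, had a change of 2.11, from 398.0 to 1600. Krt7, a keratin of bile ducts, went from 5.97, not well above background, to 15.7, a change of at least 0.19. The other 4 had changes between -0.46 and 0.08: the defining marker Krt19 went from 48.1 to 33.0 and Epcam from 28.6 to 26.3, both of the size of the local background, and Spp1, for osteopontin, from 2344 to 1645. Without Sox9 the sum was 2408 upon fasting and 1776 upon feeding, most of it Spp1. The part of bile duct cells in the higher signal of Slc51b was not tested. Of 6 ileal enterocyte markers 4 were measured, with sums of 12403 and 10632, most of it Fabp2. The signals of Vil1, Sis and Alpi were at most 33.2. Fabp6, the bile acid binding protein of the ileum, was not well above background upon fasting or feeding.

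The 6 hepatocyte markers summed to 556684 upon fasting and 485959 upon feeding, with a median change of -0.07. The lower sum came mainly from Tat, with a change of -0.97, and Cps1, with -0.33. Alb, Apoa1, Ttr and Serpina1c lay between -0.07 and 0.08. The median of -0.07 is used for comparison below. Kupffer cell and macrophage markers were lower by more than this median, at a median of -0.41 over 5 of 6 and sums of 50310 and 33890. All 6 endothelial markers were measured, with a median change of -0.42 and sums of 37611 and 28744. The 6 stellate cell markers had a median change of -0.12 and sums of 39642 and 31170, the 2 measured red blood cell markers one of -0.14, and the 5 leukocyte markers one of 0. The leukocyte median was the value of Cd79a, well above background upon feeding only, whose bound was set at 0. The leukocyte markers ranged from -0.49 to 0.61. The part of cell composition in the lower signals of Slco1a4, Slco1a1 and Abcc3 was not tested.

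Other transporters of hepatocytes gave a background of the same kind of protein. Of 28 such genes 25 were measured, with a median change of 0.01. At 2-fold, 1 was higher, beside 3.28% of all genes measured, and 1 lower, beside 4.63%. Abcg8, which with ABCG5 secretes cholesterol into bile, had a signal of 330.8 upon fasting and 103.4 upon feeding, a change of -1.49, and Slc13a3, a sodium-dependent dicarboxylate carrier, had 387.7 and 811.0, a change of 1.19. With normexp both were short of 2-fold, at -0.93 and 0.87. The partner gene Abcg5 had a change of -0.31, so that the subunits of the sterol exporter differed in their values. Abcg5 was named for its role after its values were seen, as was Abcb4, which encodes the canalicular floppase for phosphatidylcholine and had a change of -0.67, from 37581 to 23130. The list also held OATP genes outside the set, of which Slco2a1, a prostaglandin carrier, had a change of 0.51, Slco2b1 0.10, Slco3a1 -0.21 and Slco4a1 -0.70. The second probes of Slco2b1 and Slco3a1 had the opposite sign, at -0.16 and 0.20. Slc10a2, the sodium-dependent carrier of the ileum and of bile duct cells, had 1501 and 1512, a change of 0.07.

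All 21 nuclear receptors and other factors known to control these transporters were measured, with a median change of 0.15. Of these, 0 were at least 2-fold higher, beside 3.28% of all genes measured, and 4 at least 2-fold lower, beside 4.63%. Nr1h4, which encodes FXR, had signals of 12392 and 22827 and a change of 0.91, which passed 2-fold with median scaling at 1.12 and with no other processing. Nr0b2, which encodes SHP, a product of an FXR target gene, had signals of 321.9 and 287.8 and a change of 0.01. Of the transporter genes named above as induced by FXR, which are not all of its targets, Abcb11 was near 0, Slc51b was higher and Slc51a was not measured.

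The 4 genes at least 2-fold lower were Ppargc1a, Cebpb, Vdr and Foxo1. Ppargc1a, a coactivator of the fasting liver, had a change of -3.26, from 1434 to 135.1, and Foxo1, a factor that insulin excludes from the nucleus, one of -1.12, which was -0.92 and short of 2-fold with median scaling. Cebpb, a factor of gluconeogenesis and the acute phase response, had a change of -1.37. The Vdr signals of 44.9 and 16.3 were dim, and its change of -1.28 was -0.23 with normexp. At 1.5-fold, 5 of the 21 were higher, beside 10.5% of all genes, and 7 lower, beside 10.6%. Of the receptors that sense foreign compounds, Nr1i2, which encodes PXR, had a change of -0.80 and Nr1i3, which encodes CAR, one of 0.73, and the receptor of fatty acids Ppara had -0.78.

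**Figure D4:**
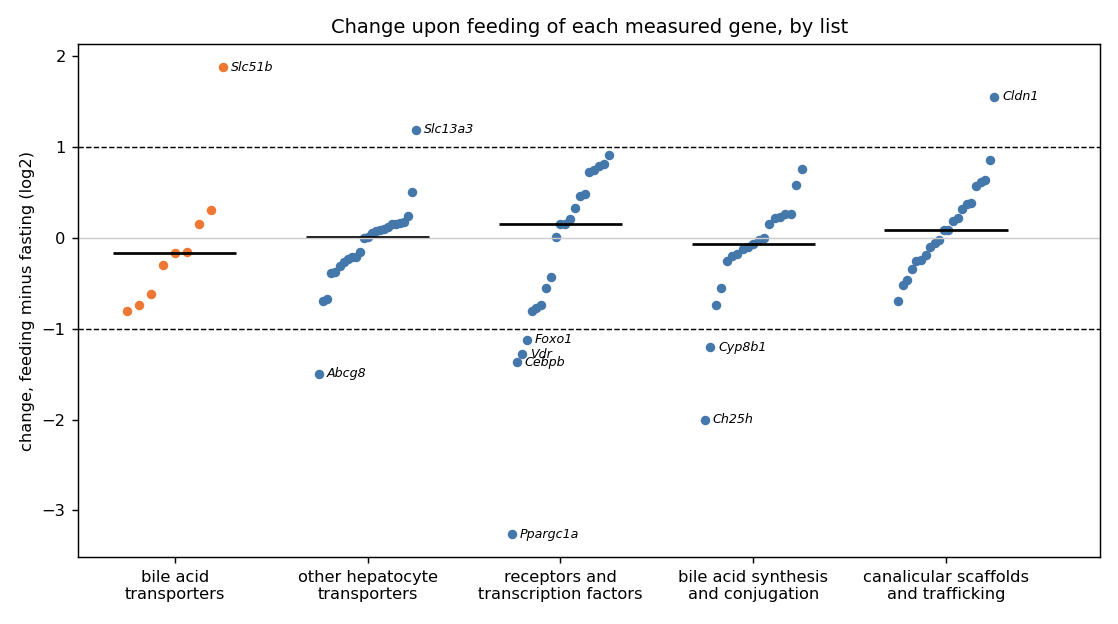
Change upon feeding (log2, vertical axis) of each measured gene (points) in the bile acid transporters and in 4 lists of related genes, ordered within a list by value, with the median as a black line and dashed lines at 2-fold. The medians lie between -0.16 and 0.15, and the genes past 2-fold are named.

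The synthesis and conjugation of bile acids supply the substrates of these transporters. All 19 genes of that list were measured, with a median change of -0.07. At 2-fold, 0 were higher, beside 3.28% of all genes measured, and 2 lower, beside 4.63%. Cyp8b1, the sterol 12α-hydroxylase that sets the share of cholic acid, had signals of 2602 and 1082 and a change of -1.21. Ch25h, a cholesterol 25-hydroxylase, had dim signals of 48.0 and 10.6 and a change of -2.00, which was -0.35 with normexp. Baat, which conjugates bile acids to taurine, the form that Slc10a1 and Abcb11 carry, had a change of 0.23, and Slc27a5, which activates them for it, one of -0.10.

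Exporters reach the canalicular membrane through scaffold and trafficking proteins. Of 24 such genes 22 were measured, with a median change of 0.08. At 2-fold, 1 was higher, beside 3.28% of all genes measured, and 0 lower, beside 4.63%. Cldn1, a protein of the tight junctions that seal the canaliculus, had signals of 682.5 and 1888 and a change of 1.56. The other 21 measured genes had changes between -0.70 and 0.86, the lowest that of Rab11fip1 and the highest that of Cldn2. The other probe of Cldn2 had 0.15, and the Rab11fip1 signals of 44.4 and 23.8 were dim. Rdx, for radixin, and Myo5b, for myosin Vb, which hold and deliver the canalicular pumps, had changes of -0.02 and 0.08, and Pdzk1, for a scaffold of membrane transporters, had 0.61.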

How the data were processed

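Total RNA of pooled liver was hybridised to 1-colour Agilent arrays, 1 per group, and the authors read the scans with Agilent Feature Extraction 11.0.1.1. The deposited values are spot intensities; the processed signal is background-subtracted and not normalized between arrays. The deposited table of the series holds the local background of each spot, and was not used. The authors' quantile normalization in GeneSpring and 2-fold filter were followed here.

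Control and outlier spots were left out, log2 of the processed signal was averaged per probe, and the 39402 probes were quantile normalized. Probes were named through RefSeq accessions of the assembly GRCm38.p6 (27218 matched); the array design names the older build mm9. A gene with several probes took the brightest and counted as measured if well above background on at least 1 array, which 16348 of 20652 genes were. Where this held on 1 array only (1833 genes), the change was a lower bound, set at 0 for the 1149 genes where the bound gave no fold; no bile acid transporter was among them. With measured signals throughout, the median over all genes was 0.03 in place of 0.

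With 1 array per group there was no test. Precision is limited by the number of arrays, and the software's signal error and replicate spots cover the measurement only. The alternatives were median and 75th percentile scaling, cyclic loess and normexp with an offset of 50 (limma 3.58.1, R 4.3.3), a correction by a 5 by 5 grid of array position, the mean of a gene's probes, other filters on dim probes, no lower bound, and thresholds of 1.5-fold and 3-fold. The normalization and the fold calls were checked on simulated data with every probe set well above background and the same noise at all signals. The filter on dim probes and the lower bound were not exercised by it. The genes and lists were chosen with earlier results of these data known. All 10 transporters were named, and in each further list at most 4 genes past 2-fold with the largest change and well above background on both arrays, with Nr1h4 and Nr0b2 in any case; others were named for their role after their values were seen.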

Additional observations from a re-analysis of the deposited data

How the results depend on the processing

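Of the 9 other ways of processing, the mean of probes, other filters and missing lower bound repeat the transporters' main values, except for Slc10a1. Under all 9, 1 bile acid transporter, Slc51b, was at least 2-fold higher and 0 were at least 2-fold lower. At a threshold of 1.5-fold 3 were lower, and at 3-fold 0. The median change of the set was -0.16 and turned to 0.039 with median scaling, where the median of all genes was 0.094; relative to it the set was at -0.054. Past 2-fold, 537 of all genes were higher and 757 were lower; these counts were 216 and 312 with normexp, 846 and 1177 with no filter on dim probes and 1714 and 1739 at 1.5-fold, while 158 and 311 passed 3-fold. Without lower bounds 878 were higher and 761 lower. The share of higher against lower calls therefore moved with the bound, and no bile acid transporter had one. The causes were not tested.

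No paired analysis was possible because each group has 1 array. Dim signals limit Slc51a, which has no measured change, and Slc51b, whose signal upon fasting was 122.0.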
